A study of Triticum aestivum with 20 samples.

Results

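E8 is the chromatin state of wheat leaf that was read as accessible DNA inside H3K27me3, with no active histone mark. The regions described here are all merged E8 runs, that is, unbroken rows of 200 bp bins with the label E8, in the segmentation of vernalized leaf and in that of leaf. They were chosen by the state label itself and by no other value. Vernalized leaf held 22771 of them among 648214 merged runs of the modified states E1 to E8, and leaf held 20058 among 703321. Because the label chose the runs, their number, length and share in the conditions are descriptions. A test was made only between sub-genomes, which the choice of runs did not use.

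H3K27me3 is laid down by Polycomb repressive complex 2 and is associated with silent genes, many of them developmental regulators. Accessible chromatin is DNA that is open to enzymes and transcription factors and marks promoters and distal regulatory elements. Chromatin that carries both is often described as poised or as a mixture of cells in different states, and bulk tissue cannot tell these apart. In winter cereals, vernalization is the long cold that makes the plant competent to flower, and loss of H3K27me3 from *VRN1* is the known example of a chromatin change in this process.

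Both conditions were sampled from the bread wheat cultivar AK58, a hexaploid with the sub-genomes A, B and D. Vernalized leaf came from plants kept for a month in a cold chamber and then returned to the greenhouse for a day, and leaf came from young plants that had no cold. Age, the cold and the return to warmth therefore differed together between the conditions and cannot be told apart. Each condition had 10 libraries, with 2 replicates for each of H3K4me3, H3K36me3, H3K27ac, H3K27me3 and input, and from these and from chromatin accessibility the authors made 1 segmentation per condition in IWGSC RefSeq v1.0. There was no value per library, so the values have no replicate error and the conditions were compared without a test. The read depth behind a call was not used here. The segmentations covered 14066 Mb on 21 chromosomes with 9 states. E5 is read as H3K27me3 alone, E7 as accessibility alone, E3 and E4 as further mixtures of H3K27me3 with active signals, E1, E2 and E6 as active, and E9 as unmodified. E1, E3, E6, E7 and E8 were counted as accessible. These meanings follow the row order in which the study shows its states, which the files hold no signal to check. Whether equal labels of the 2 conditions come from 1 model was not established.

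E8 covered almost the same length in both conditions but was cut into more and shorter runs in vernalized leaf. It spanned 10.48 Mb in vernalized leaf and 10.67 Mb in leaf, a ratio of 0.982, which was 0.0745% of the genome in vernalized leaf and 0.0758% in leaf. The number of runs went the other way, with a ratio of 1.14, and the mean run was 460.2 bp in vernalized leaf and 531.9 bp in leaf. More runs were found in vernalized leaf on 20 of 21 chromosomes, the exception being 2A with 1184 runs in vernalized leaf and 1200 in leaf. The ratio of bases was above 1 on 9 chromosomes and below 1 on 12, so the equal totals were a balance of unequal chromosomes.

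E8 was a minor part of both signals it joins. It made up 1.98% of all bases in H3K27me3 states in vernalized leaf (528.2 Mb) and 1.60% in leaf (664.9 Mb). Of all accessible bases it took 7.48% in vernalized leaf (140.0 Mb) and 9.21% in leaf (115.9 Mb). Its share of the mixed states E3, E4 and E8 together was 31.2% in vernalized leaf and 15.7% in leaf. E4 covered less in vernalized leaf, with 12.25 Mb there and 52.75 Mb in leaf, while E3 covered more, with 10.81 Mb in vernalized leaf and 4.44 Mb in leaf.

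E8 runs were short. The median was 400 bp in both conditions, with quartiles of 200 and 600 bp. Runs of a single bin were 41.5% of all runs in vernalized leaf and 36.4% in leaf. At the other end, 194 runs in vernalized leaf (0.852%) and 430 in leaf (2.14%) reached 2000 bp, and they held 4.96% of E8 bases in vernalized leaf and 10.4% in leaf. The 95th percentile was 1200 bp in vernalized leaf and 1400 bp in leaf. The shortening was thus seen at both ends of the length range, with more single bins and fewer long runs in vernalized leaf.

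**Figure D1:**
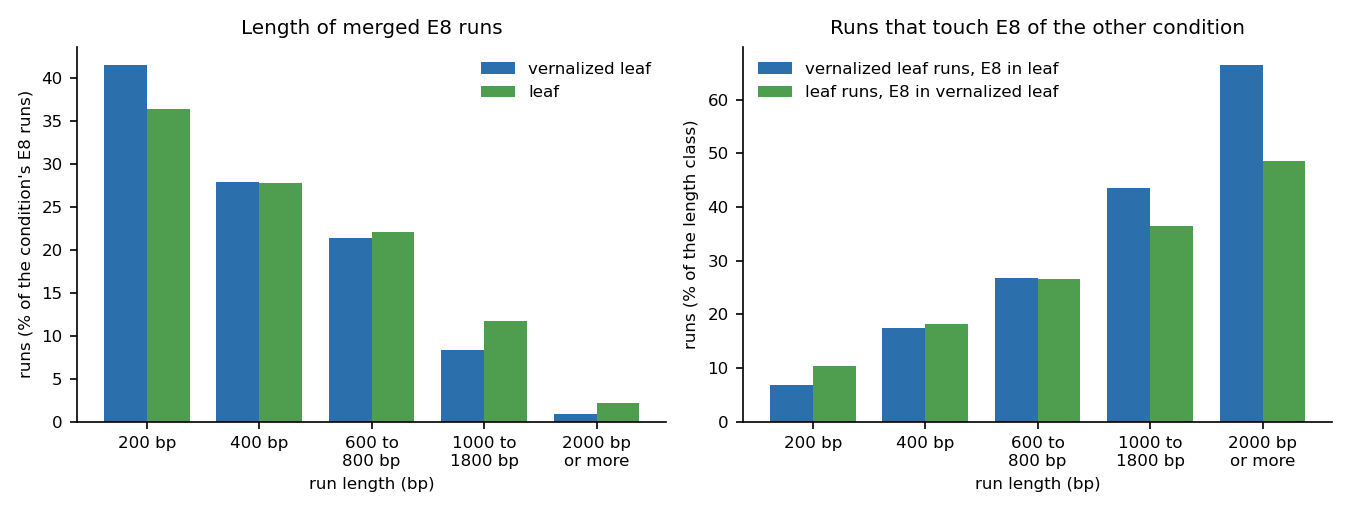
Left, share of E8 runs in each length class (% of the condition's runs) in vernalized leaf and leaf. Right, share of the runs of each class that touch at least 1 base of E8 in the other condition. Single-bin runs were 41.5% in vernalized leaf and 36.4% in leaf, and the share that touches E8 of the other condition was larger in longer classes, up to 66.5% for vernalized leaf and 48.6% for leaf.

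The longest E8 run of vernalized leaf lay at chr3B:796503401-796512800, spanned 9400 bp and had E9 on both sides. In leaf the same bases were 55.3% E5 and 34.0% E8. The next were a run of 7800 bp at chr7B:595789801-595797600, which was 53.8% E5 and 10.3% E8 in leaf, and a run of 5600 bp at chr1D:14704401-14710000, which was 82.1% E5 in leaf with no E8. All 3 thus had E5 as their commonest leaf state.

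The longest E8 run of leaf lay at chr7D:619188001-619195600 and spanned 7600 bp within an H3K27me3 stretch of 69400 bp. In vernalized leaf it was 89.5% E5 and held no E8. The run of 6600 bp at chr3D:18794201-18800800 was 54.5% E5 and 24.2% E8 in vernalized leaf. The run of 5800 bp at chr5A:696928601-696934400, bordered by E5 and E7, was 51.7% E5 and 27.6% E8 there. E5 was again the commonest state of all 3 in the other condition. All of these regions but the one on 7B lay within 5% of a chromosome end.

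The flanks of E8 differed between the conditions. A run was called inside E5 where E5 touched both ends, at the edge of E5 where E5 touched 1 end, isolated where E9 touched both ends, and other in the remaining cases. In vernalized leaf 5171 runs (22.7%) were inside E5, against 10774 (53.7%) in leaf. Edge runs were 9854 (43.3%) in vernalized leaf and 7773 (38.8%) in leaf. Isolated runs were 5063 (22.2%) in vernalized leaf but only 35 (0.174%) in leaf. The remaining class held 2683 runs (11.8%) in vernalized leaf and 1476 (7.36%) in leaf. The share inside E5 was smaller, and the isolated share larger, in vernalized leaf on 21 of 21 chromosomes, which are parts of the same segmentations and not replicates.

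The pairs of flanking states show the same shift. In vernalized leaf the commonest pair was E5 with E9, at 7691 runs (33.8%), a pair that leaf had at 309 runs (1.54%). In leaf the second commonest pair after E5 with E5 was E3 with E5, at 3759 runs (18.7%), which vernalized leaf had at 997 (4.38%). E5 with E7 bordered 365 runs (1.60%) in vernalized leaf and 1922 (9.58%) in leaf. Counted by run ends, 44.3% of E8 ends touched E9 in vernalized leaf and 1.40% in leaf. Leaf E8 was thus almost always enclosed in other modified states, which was not so in vernalized leaf.

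**Figure D2:**
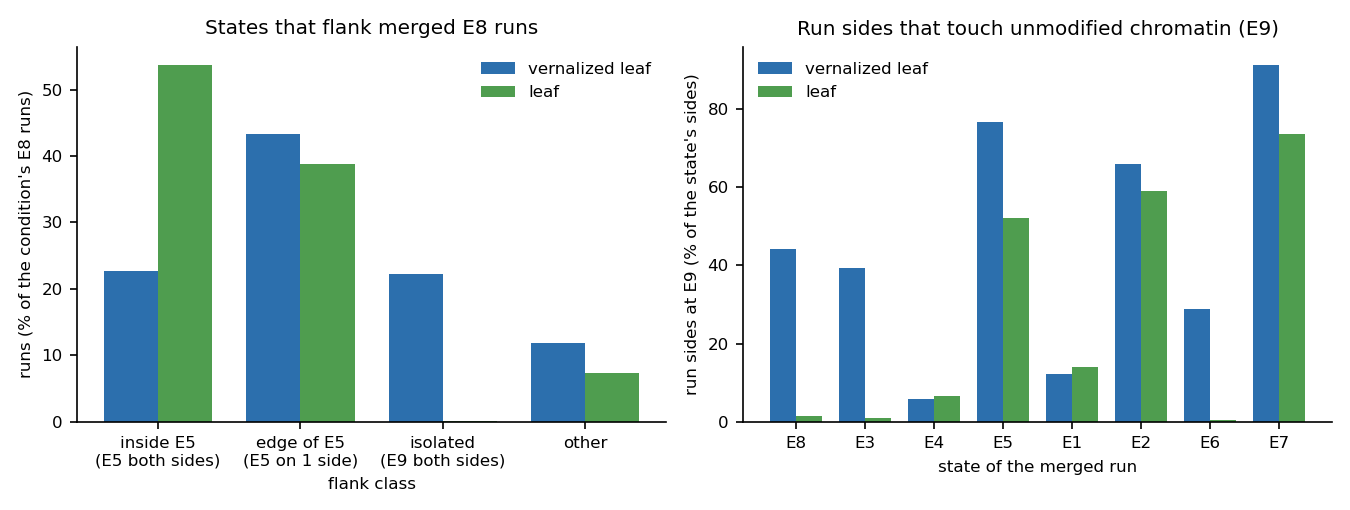
Left, share of E8 runs in each flank class (% of the condition's runs) in vernalized leaf and leaf. Right, share of the ends of merged runs of each state that touch unmodified chromatin (E9). Isolated E8 runs were 22.2% in vernalized leaf and 0.174% in leaf, and E3 and E6 also had far more ends at E9 in vernalized leaf.

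This contact with E9 was not seen for E8 alone. Of E3 run ends, 39.4% touched E9 in vernalized leaf and 1.01% in leaf, and of E6 run ends 28.9% in vernalized leaf and 0.449% in leaf. E4 and E1 had little contact in both, with 5.70% of E4 ends in vernalized leaf and 6.63% in leaf, and 12.2% of E1 ends in vernalized leaf and 13.9% in leaf. E5 and E7 ends touched E9 often in both conditions, at 76.7% in vernalized leaf and 52.2% in leaf for E5, and at 91.3% in vernalized leaf and 73.5% in leaf for E7. Since E3, E6 and E8 moved together, the part that the segmentation itself has in the isolated E8 runs was not tested.

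The bins beside the runs were also looked up in the other condition. The 200 bp on the 2 sides of isolated E8 runs of vernalized leaf were E5 in leaf in 43.6% of cases and E9 in 39.5%. Over all E8 ends at E9 in vernalized leaf, 49.6% of the neighbouring bins were E5 in leaf and 32.3% were E9. Over all E8 ends at E5 in leaf, 51.8% of the neighbouring bins were E5 in vernalized leaf too and 34.2% were E9. The isolated runs of vernalized leaf were therefore divided between places where leaf had H3K27me3 alongside and places where it did not.

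The surroundings of E8 carried less H3K27me3 in vernalized leaf at every distance up to 10 kb, as did the genome as a whole, with 528.2 Mb in vernalized leaf and 664.9 Mb in leaf. At 200 bp from the end of a vernalized leaf run, 51.5% of bins had an H3K27me3 state in vernalized leaf and 73.2% in leaf. At 1000 bp these shares were 47.1% in vernalized leaf and 66.1% in leaf, and at 10 kb 28.1% in vernalized leaf and 34.7% in leaf. Around leaf runs the shares at 200 bp were 59.8% in vernalized leaf and 90.5% in leaf. At 1000 bp from leaf runs they were 54.9% in vernalized leaf and 78.6% in leaf, and at 10 kb 27.8% in vernalized leaf and 36.05% in leaf. The drop over distance was steepest in leaf around its own E8 runs.

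**Figure D3:**
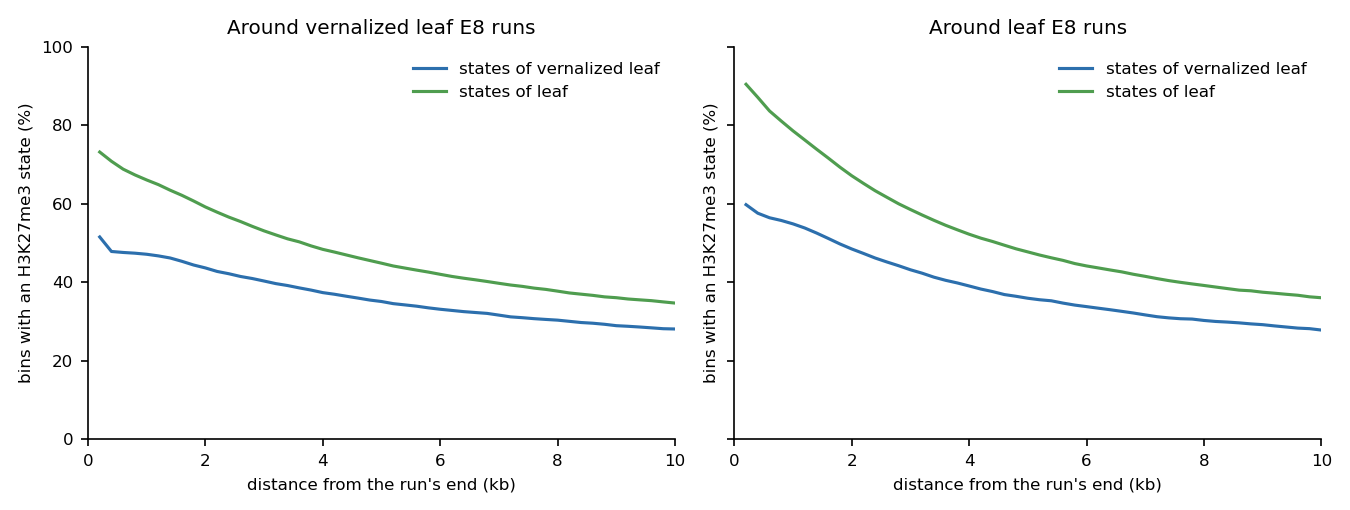
Share of bins in an H3K27me3 state (E3, E4, E5 or E8, in %) by distance from the ends of E8 runs (kb), around the runs of vernalized leaf (left) and of leaf (right), read in each condition. The vernalized leaf line is below the leaf line at all distances shown, with 51.5% against 73.2% at 200 bp on the left and 59.8% against 90.5% on the right.

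Few E8 runs were found at the same place in both conditions. E8 in both covered 1.806 Mb in 4110 stretches, out of 19.3 Mb that were E8 in either, a Jaccard index of 0.0934 that ranged over chromosomes between 0.0794 on 6A and 0.109 on 5A. In vernalized leaf 4012 runs (17.6%) touched at least 1 base of leaf E8, and in leaf 4008 (19.98%) touched vernalized leaf E8. The same count over all merged runs of E1 to E8, each with its own state, was 47.9% for vernalized leaf and 43.2% for leaf. E8 runs were therefore found again less often than modified runs as a whole, although the states differ in run length and number. By bases, 17.2% of vernalized leaf E8 was E8 in leaf, against 11.2% for E7 and 82.7% for E5, and 16.9% of leaf E8 was E8 in vernalized leaf, against 14.99% for E7 and 68.6% for E5. The other mixed states lay on both sides of E8, with 13.2% for E3 and 40.9% for E4 of vernalized leaf, and 32.1% for E3 and 9.49% for E4 of leaf. The order of leaf E8 and leaf E7 held on 17 chromosomes and was reversed on 4. By run length, leaf E8 was below leaf E7 in all classes under 2000 bp, with 10.3% and 11.8% at 200 bp. It was above leaf E7 only at 2000 bp or more, with 19.1% and 17.3%. Vernalized leaf E8 was below E7 at 200 bp, with 6.87% and 11.9%, and above it in all longer classes. The longest stretch that was E8 in both was 2800 bp at chr3D:581353201-581356000.

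Most E8 runs had no E8 of the other condition close by. E8 of leaf lay within 600 bp of 24.0% of vernalized leaf runs, and E8 of vernalized leaf within 600 bp of 27.7% of leaf runs. The nearest E8 of the other condition was farther than 5000 bp for 62.5% of vernalized leaf runs and 55.8% of leaf runs. It was farther than 100000 bp for 28.8% of vernalized leaf runs and 20.1% of leaf runs. Within a condition the median gap from an E8 run to the nearest other E8 run was 20400 bp in vernalized leaf and 12000 bp in leaf.

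Long runs touched E8 of the other condition more often than short ones, as longer runs have more bases that can. Of single-bin runs 6.87% in vernalized leaf and 10.3% in leaf did so. For runs of 1000 to 1800 bp the shares were 43.5% in vernalized leaf and 36.5% in leaf, and for runs of 2000 bp or more 66.5% in vernalized leaf and 48.6% in leaf. By bases, which do not grow with run length in this way, 6.87% of single-bin vernalized leaf E8 was E8 in leaf, against 29.9% of the bases of runs of 2000 bp or more. For leaf E8 the shares of bases were 10.3% in single-bin runs and 19.1% in runs of 2000 bp or more. Runs that touched E8 of the other condition averaged 707.8 bp in vernalized leaf and 745.3 bp in leaf, and the others 407.3 bp in vernalized leaf and 478.6 bp in leaf.

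By flank class the shares were closer together. In vernalized leaf 17.4% of runs inside E5, 19.8% of edge runs and 12.3% of isolated runs touched leaf E8. In leaf the shares were 19.6% inside E5 and 20.3% at its edge. Isolated runs of vernalized leaf were thus the class found least often in leaf.

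Most vernalized leaf E8 had been H3K27me3 chromatin in leaf. Of its bases, 48.2% were E5 in leaf (37.2% on 5A to 55.2% on 3B), 17.2% were E8, 13.1% were E9 and 9.04% were E4. Smaller shares were E7 (4.82%), E3 (3.25%), E2 (1.92%), E1 (1.36%) and E6 (1.07%). In total 77.7% of vernalized leaf E8 bases had an H3K27me3 state in leaf and 27.7% an accessible state, and 20.5% had both. Of the runs, 9868 (43.3%) were E5 in leaf over their whole length.

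The fate of leaf E8 was likewise led by E5, with a larger share of unmodified chromatin than in the origin of vernalized leaf E8. Of leaf E8 bases, 43.5% were E5 in vernalized leaf (40.2% on 6A to 46.8% on 4A), 25.2% were E9 and 16.9% were E8. Another 5.17% were E6, 2.95% E7, 2.84% E4 and 2.47% E2, while E3 and E1 took 0.814% and 0.165%. In total 64.0% had an H3K27me3 state in vernalized leaf, 26.03% an accessible state and 17.7% both. States with an active mark and no H3K27me3 (E1, E2 and E6) held 7.81% of leaf E8 bases in vernalized leaf, and 4.35% of vernalized leaf E8 bases in leaf. Of the runs, 7684 (38.3%) were E5 in vernalized leaf over their whole length and 4190 (20.9%) were E9. The share of bases in E9 was not larger for leaf E8 than for the states that carry 1 of its signals. In vernalized leaf, E9 held 28.8% of all leaf E5 bases and 57.0% of leaf E7 bases. In leaf, E9 held 9.72% of vernalized leaf E5 bases and 79.9% of vernalized leaf E7 bases. The 13.1% of vernalized leaf E8 lay between these, so in this direction E8 was above E5.

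**Figure D4:**
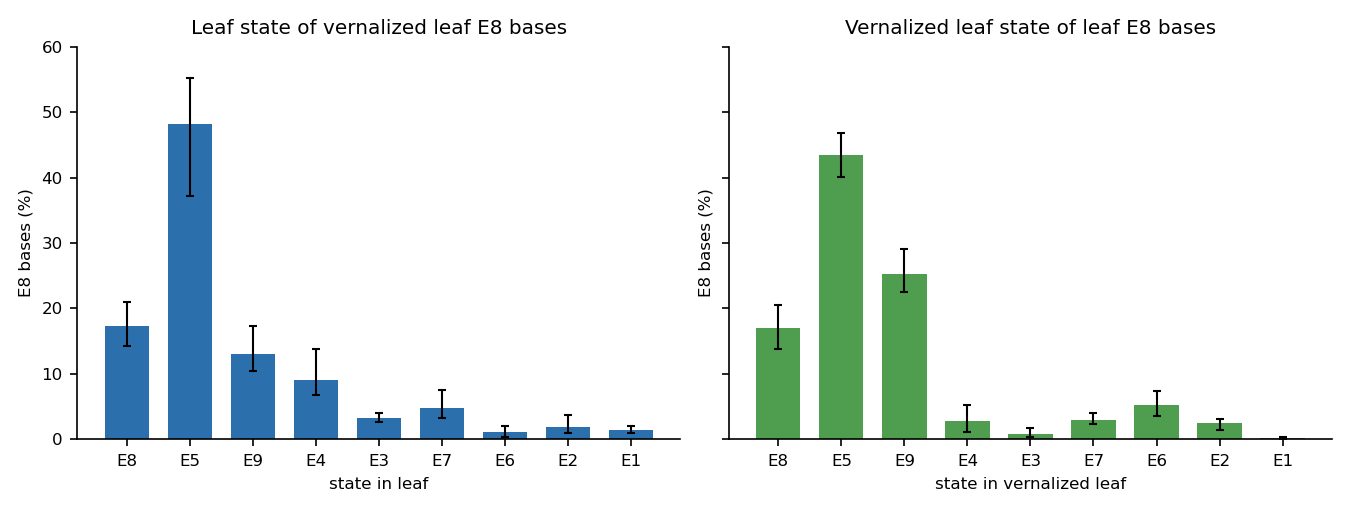
Leaf state of the bases that were E8 in vernalized leaf (left) and vernalized leaf state of the bases that were E8 in leaf (right), in % of E8 bases. Bars give the whole genome and black lines run between the lowest and the highest of the 21 chromosomes. E5 led on both sides, with 48.2% and 43.5%, and E9 took 13.1% on the left and 25.2% on the right.

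The flanks of a run went with its state in the other condition. Vernalized leaf E8 inside E5 was 67.3% E5 in leaf, edge E8 48.0% and isolated E8 39.3%. For E9 in leaf the order was turned round, with 4.03% of the bases inside E5, 11.6% at its edge and 28.0% of isolated bases. Isolated vernalized leaf E8 had been E7, accessible without H3K27me3, in 7.52% of its bases, against 0.823% inside E5. For leaf E8, 49.3% of bases inside E5 and 36.8% at its edge were E5 in vernalized leaf, and E9 took 22.8% of the bases inside E5 and 28.2% at its edge. Active states took 5.23% of leaf E8 bases inside E5 and 10.4% at its edge.

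Each signal of E8 can be set against the state that carries it alone. Leaf E8 was accessible in vernalized leaf for 26.03% of its bases, and leaf E7 for 30.9%, with E8 below E7 on 21 of 21 chromosomes. E8 was below E7 in every length class too, and the gap was smallest at 200 bp, with 17.5% and 21.9%. The shares were 29.4% and 48.4% at 1000 to 1800 bp, and 29.8% and 46.4% at 2000 bp or more. Leaf E8 kept an H3K27me3 state for 64.0% of its bases and leaf E5 for 70.4%, with E8 below E5 on 17 chromosomes and above on 4. This order held only for runs of 2000 bp or more, with 67.6% for leaf E8 and 74.3% for leaf E5. In all shorter classes leaf E8 was above leaf E5, with 62.8% and 30.5% at 200 bp and 64.9% and 41.3% at 1000 to 1800 bp. In the other direction, 27.7% of vernalized leaf E8 was accessible in leaf, against 14.8% of vernalized leaf E7, and E8 was above E7 on 21 chromosomes. Single-bin runs did not show this, with 15.4% for E8 and 16.4% for E7. In all longer classes E8 was above E7, for example with 37.0% and 17.3% at 1000 to 1800 bp. An H3K27me3 state was found in leaf for 77.7% of vernalized leaf E8 and 89.9% of vernalized leaf E5, with E8 below on 21. By run length E8 was below E5 at 200 bp (69.5% and 75.5%) but above it at 400 bp (75.7% and 65.2%). The shares were close at 600 to 800 bp (79.3% and 78.8%) and at 1000 to 1800 bp (83.1% and 83.3%). At 2000 bp or more E8 was below E5 (84.2% and 91.3%). In both directions, then, the H3K27me3 of E8 was found in the other condition more often than its accessibility.

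Leaf E5 close to E8 was found less often in an H3K27me3 state in vernalized leaf than other leaf E5. Of leaf E5 bases within 1000 bp of E8, 61.7% had an H3K27me3 state in vernalized leaf, against 70.8% of leaf E5 farther away. For vernalized leaf E5 the shares with H3K27me3 in leaf were 90.2% close to E8 and 89.9% farther away. This comparison mixes E5 of different domain lengths and was not split by them. Whole H3K27me3 domains with and without E8 are compared by length further below, which is a different measure.

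H3K27me3 stretches were defined as unbroken rows of bins in E3, E4, E5 or E8. Vernalized leaf had 130675 of them, of which 20815 (15.9%) held E8, and leaf had 99227, of which 14416 (14.5%) did. Stretches with E8 had a median length of 1600 bp in vernalized leaf and 7600 bp in leaf, and stretches without E8 a median of 1000 bp in vernalized leaf and 2800 bp in leaf. Most held a single E8 run, namely 92.1% in vernalized leaf and 74.7% in leaf. Stretches with 5 or more E8 runs numbered 11 in vernalized leaf and 190 in leaf. Stretches made of E8 alone numbered 5970 (28.7% of those with E8) in vernalized leaf and 352 (2.44%) in leaf.

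Within these stretches most E8 runs lay at the border in vernalized leaf and in the interior in leaf. In vernalized leaf 70.7% of runs reached the end of their stretch and 15.6% lay 1000 bp or more inside it. In leaf 17.3% reached the end and 61.8% lay 1000 bp or more inside. The median distance to the nearer end was 0 bp in vernalized leaf and 1600 bp in leaf. Stretch length bounds these distances and was not matched here. Stretches with E8 had a median of 1600 bp in vernalized leaf and 7600 bp in leaf. A run also reaches the end by definition where the stretch is E8 alone, as in 5970 stretches of vernalized leaf and 352 of leaf.

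A stretch with E8 in one condition held E8 in the other more often than a stretch without. For vernalized leaf, 25.4% of stretches with E8 and 5.68% of those without held E8 in leaf. For leaf, 40.9% with E8 and 8.88% without held E8 in vernalized leaf. Stretches with E8 were longer, but the difference was also present within each length class. Among leaf stretches of 5000 to 9800 bp it was 39.3% with E8 and 13.3% without, and among those of 20000 bp or more 61.1% and 27.5%. Among vernalized leaf stretches of 5000 to 9800 bp it was 35.1% and 9.79%.

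Whether stretches with E8 kept their H3K27me3, counted over their bases outside E8, depended on length in leaf. Leaf stretches of 1000 to 1800 bp kept 36.9% of it with E8 and 29.0% without, higher with E8 on 19 of 21 chromosomes. Those of 2000 to 4800 bp kept 46.1% and 43.3%, higher on 14. At 5000 to 9800 bp the order was the other way, with 57.7% and 61.3%, higher with E8 on 5 chromosomes. From 10000 to below 20000 bp the shares were 70.9% with E8 and 77.7% without, higher on 1 chromosome, and at 20000 bp or more 87.7% and 90.3%, higher on 2. Long leaf stretches with E8 thus kept less H3K27me3 than those without, and short ones more.

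In vernalized leaf the classes above 2000 bp had more H3K27me3 in leaf where they held E8. The shares were 87.8% with E8 and 81.5% without at 2000 to 4800 bp, higher on 20 of 21 chromosomes. At 5000 to 9800 bp they were 92.8% and 87.8%, and from 10000 to below 20000 bp 94.5% and 91.5%, higher on 21 in both classes. At 20000 bp or more they were 96.2% and 94.8%, higher on 17. In the shortest class, below 1000 bp, the shares were 66.5% with E8 and 68.1% without, higher on 7.

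The stretch with the most E8 runs in vernalized leaf was chr1D:468688401-468736200, 47800 bp long, with 6 runs in vernalized leaf and 3 in leaf. In leaf it was chr5B:691396001-691489600, 93600 bp long, with 13 runs in vernalized leaf and 19 in leaf, and 88.9% of it had an H3K27me3 state in vernalized leaf. The 1 Mb window with the most runs was chr2A:12000001-13000000 for vernalized leaf, with 42 runs in vernalized leaf and 36 in leaf. For leaf it was chr6D:6000001-7000000, with 35 runs in vernalized leaf and 43 in leaf. These 4 places were picked as the highest of their condition, and each held E8 runs in the other condition too.

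The longest stretches of each change give examples. Of vernalized leaf E8, the longest that was E5 in leaf spanned 4400 bp at chr7A:117083001-117087400, and the longest that was E9 in leaf 2000 bp at chr3B:817186401-817188400. The longest that was E6 in leaf spanned 2600 bp at chr2D:59471001-59473600, and the longest that was E7 spanned 1600 bp at chr7D:28398401-28400000. These last 2 were read as accessible in both conditions and differed in H3K27me3. The E6 stretch differed also in the active mark that E6 is read to carry. Of leaf E8, the longest that was E5 in vernalized leaf spanned 6400 bp at chr7D:619188401-619194800, and the longest that was E9 2600 bp at chr3B:782682801-782685400. The longest that was E6 spanned 2600 bp at chr1D:391237001-391239600, the longest that was E7 2000 bp at chr5D:424058001-424060000, and the longest that was E2 1600 bp at chr6B:114073601-114075200. In these 3 the H3K27me3 state of leaf was absent in vernalized leaf over the whole stretch. Which genes lie there was not analysed here.

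E8 was concentrated at chromosome ends. When each chromosome was divided into 20 equal blocks, the first and the last block together held 47.3% of E8 bases in vernalized leaf and 47.5% in leaf. E8 took 0.397% of the last block in vernalized leaf and 0.395% in leaf, and 0.308% of the first block in vernalized leaf and 0.326% in leaf. The lowest block was the 8th in both conditions, with 0.0029% in vernalized leaf and 0.0018% in leaf. The end blocks also held 51.2% of all H3K27me3 bases in vernalized leaf and 46.8% in leaf, so the position of E8 was close to that of the mark as a whole. Of accessible bases they held only 16.4% in vernalized leaf and 19.3% in leaf.

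In chromosome centres, blocks 6 to 12, E8 was rare. There were 682 runs in vernalized leaf and 485 in leaf, and the ratio of bases was 1.26. The ratio was above 1 in blocks 6 to 11, up to 2.08 in block 9. Block 9 held only 87 runs in vernalized leaf and 50 in leaf. The ratio was 0.791 in block 12, which held the most E8 of the centre, and 0.643 in the neighbouring block 13. The centre thus had no single direction. Of the central E8 bases of vernalized leaf, 27.3% were E5 in leaf, against 53.1% in the end blocks. The isolated share of vernalized leaf runs was 28.7% in the centre and 20.3% at the ends, and 9.81% of central bases were E8 in leaf, against 18.6% at the ends. For leaf, 12.3% of central E8 bases and 18.2% of those at the ends were E8 in vernalized leaf. E8 of the ends was thus found again more often in both directions. Run length, with which this share also rose, was not matched between centre and ends.

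By sub-genome, E8 totalled 3.24 Mb in A, 3.62 Mb in B and 3.62 Mb in D in vernalized leaf, and 3.47 Mb in A, 3.41 Mb in B and 3.79 Mb in D in leaf. As a share of the chromosome, D was highest, with 0.0902% ± 0.0201 in vernalized leaf and 0.0943% ± 0.0240 in leaf (SD over 7 chromosomes). A had 0.0645% ± 0.0138 in vernalized leaf and 0.0692% ± 0.0130 in leaf, and B had 0.0692% ± 0.0137 in vernalized leaf and 0.0652% ± 0.0153 in leaf. The 7 homoeologous groups were used as pairs in a two-sided exact sign-flip test, whose smallest p is 0.0156, with adjustment over 18 comparisons. The test treats chromosomes as units and says nothing of the spread between plants.

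None of the 18 comparisons passed an adjusted p of 0.05, while 6 had an unadjusted p under 0.05. The change between conditions differed most between A and B. The mean log2 ratio of vernalized leaf to leaf E8 bases was -0.11 in A, 0.10 in B and -0.06 in D. A was below B in 7 of 7 groups, by 0.21 ± 0.12 on the log2 scale (SD; exact p = 0.0156, adjusted p = 0.112), and B was above D in 6 of 7, by 0.15 ± 0.14 (exact p = 0.0312, adjusted p = 0.112). The share of D exceeded that of B in 6 of 7 groups in vernalized leaf (exact p = 0.0312) and 7 of 7 in leaf (exact p = 0.0156). It exceeded that of A in 6 of 7 in vernalized leaf (exact p = 0.0312) and 6 of 7 in leaf (exact p = 0.0469), and the adjusted p of these 4 was between 0.112 and 0.141. Relative to H3K27me3 bases, no difference between sub-genomes had an unadjusted p below 0.0781, with means in vernalized leaf of 2.00% in A, 2.28% in B and 2.34% in D. The share of leaf E8 kept was 16.3% in A, 17.7% in B and 17.3% in D, and these differences had p-values of at least 0.141.

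**Figure D5:**
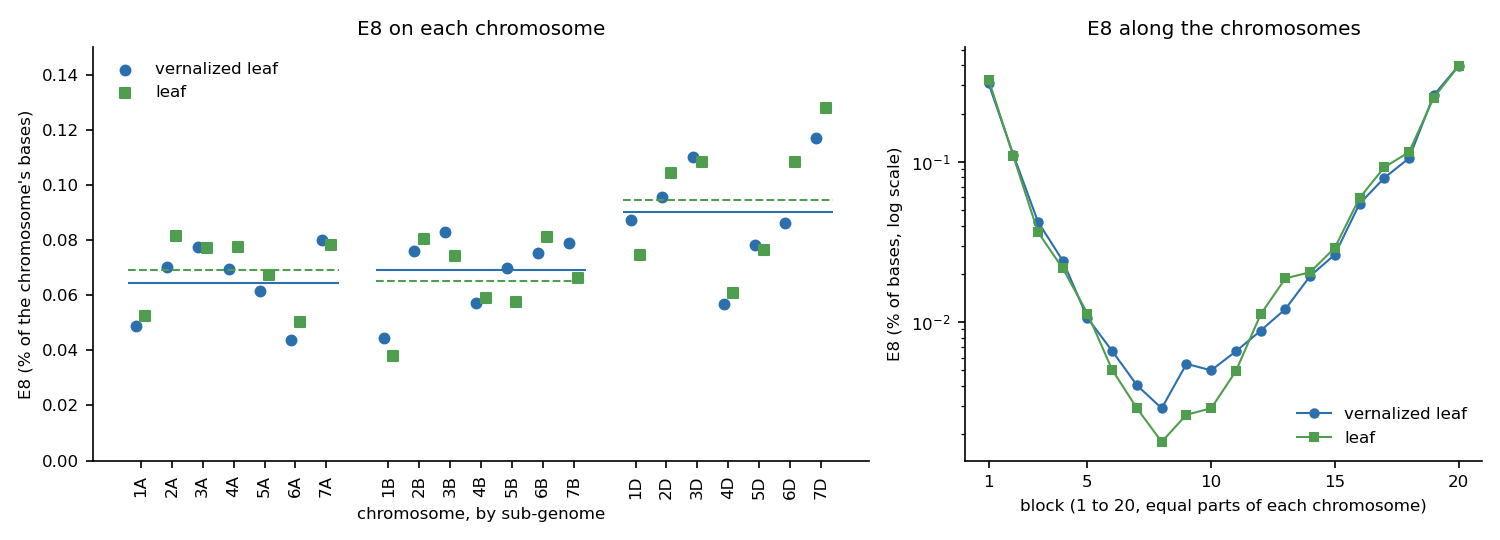
Left, E8 as a share of the bases of each chromosome (%), by sub-genome, with lines at the mean of each sub-genome (solid for vernalized leaf, dashed for leaf). Right, E8 share (%, log scale) in 20 equal blocks along the chromosomes, summed over all 21. The mean of D was 0.0902% in vernalized leaf and 0.0943% in leaf, and both curves were lowest in block 8.

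Single chromosomes varied more than the sub-genome means. The ratio of vernalized leaf to leaf E8 bases was lowest on 6D at 0.796 and highest on 5B at 1.21. E8 was densest on 7D, with 0.117% of the chromosome in vernalized leaf and 0.128% in leaf. It was sparsest on 6A in vernalized leaf, with 0.0438%, and on 1B in leaf, with 0.0381%. Relative to H3K27me3 bases it was highest on 4D, with 3.53% in vernalized leaf and 2.59% in leaf, and lowest on 4A in vernalized leaf (1.17%) and on 3B in leaf (1.05%). The share of leaf E8 kept was lowest on 6A (13.8%) and highest on 1B (20.5%). The first 240 Mb of 1B held only 8 runs in vernalized leaf and 1 in leaf, and the rest of that chromosome 649 in vernalized leaf and 548 in leaf. Without this part E8 took 0.0584% of 1B in leaf, above the 0.0503% of 6A, so the lowest rank of 1B in leaf rested on this part. The share of other states in this part is not given here.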

How the data were processed

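ChIP-seq reads were, per the labels, processed with fastp 0.21.0 and Bowtie2 2.3.5.1. The authors then gave peaks of 4 histone marks and of accessibility to ChromHMM. The deposited values are state labels of segments, 1 segmentation per condition, with no count or signal. How replicates and peaks were combined is not stated in the methods, and it decides how weak peaks entered a state. The records tiled each chromosome without gap, in steps of 200 bp, and 0 columns were left without a condition.

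Neighbouring E8 segments were merged, which changed no run. Flanks, overlaps and positions were computed with Python 3.11.15, numpy 2.4.6, pandas 2.3.3 and scipy 1.17.1, and figures with matplotlib 3.10.9. Sub-genomes were compared with a sign-flip test over 128 patterns and Benjamini-Hochberg adjustment. The functions were tested on simulated segmentations. Regions named are the 3 longest runs of each condition, the longest stretch of each change, and the window and H3K27me3 stretch with most runs, of which some are described. The runs, classes and comparisons were chosen with earlier results of these data known. The gene annotation and sequence of IWGSC RefSeq v1.0 were not used here.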

Additional observations from a re-analysis of the deposited data

How the results depend on the processing

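Each condition has 1 segmentation, so the values limit statements to these segmentations and cover no spread between plants, and the depth behind them was not used. Intervals used to judge a shift covered counting error over bins or runs only. No paired analysis was possible because the replicate numbers of the libraries have no values in the segmentations. The ratio of E8 length, 0.982, was 1.14 by number of runs and by deposited records, 0.933 for runs of at least 400 bp and 1.41 with E3 pooled. Without 1 chromosome group it lay between 0.969 and 0.9998. Its direction thus depended on the measure. The Jaccard index was 0.0959 for runs of at least 400 bp, 0.112 with E3 pooled and 0.109 with runs widened by 200 bp. Counting only overlaps over at least 1 part in 2 of the run, 14.4% of vernalized leaf runs and 15.9% of leaf runs were found again, within 600 bp 24.0% and 27.7%, and among runs of at least 400 bp 25.2% and 25.5%. Vernalized leaf E8 from E5 was 49.3% of runs by majority and 45.3% of bases without the end bins, and lay between 47.4% and 48.9% without 1 chromosome group. Leaf E8 to E5 was 45.9% by majority, 42.8% in runs of at least 400 bp and 42.0% without the end bins, and leaf E8 to E7 was 3.11% in runs of at least 400 bp. The share inside E5 was 29.3% in vernalized leaf and 82.7% in leaf with E3 and E4 counted as E5, 18.8% and 46.8% by the commonest state within 1000 bp, and 27.01% and 58.6% in runs of at least 400 bp, lower in vernalized leaf each time. With 10 blocks the last held 0.329% E8 in vernalized leaf and 0.323% in leaf. The sub-genome comparisons with an unadjusted p under 0.05 numbered 2 to 5 without 1 chromosome group, where fewer groups also raise the smallest p, and none passed after adjustment in any alternative run.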
